A study of Mus musculus with 8 samples.

Results

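The 7 genes described here mark and drive extraembryonic endoderm in the early mouse embryo: Gata4, Gata6, Sox7, Sox17, Hnf4a and Foxa1, which encode transcription factors, and Pdgfra, which encodes a receptor tyrosine kinase rather than a transcription factor. They were chosen by name, through the accession of every probe that is not a control probe. The 13005 probes whose accession matched no gene symbol could not be assigned to them. All 7 were found among 32530 genes on the array, with 8 matched probes among 39429, since Sox17 had 2 matched probes and each of the others had 1. The 32530 include accessions without a symbol, each counted as a gene. The samples were R1 mouse embryonic stem cells, an established pluripotent line, which had been transfected with siRNAs against CnAb1 or with a control and differentiated as embryoid bodies. Total RNA was hybridised to 1-colour (Cy3) Agilent arrays 48 h after transfection in every group. Control had 3 arrays, siRNA 1 had 3 and siRNA 2 had 2, all from R1 cells, and the labels name no other allele or agent. CnAb1 is a splice variant of the calcineurin A beta catalytic subunit, the product of Ppp3cb. The labels do not say that the replicates came from separate cultures, so every p-value reflects the spread among these arrays alone, and that spread may be technical.

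In the blastocyst, the inner cell mass splits into epiblast and primitive endoderm, and cells that keep Gata6 and lose Nanog under FGF and ERK signalling take the endoderm path. Primitive endoderm then gains Sox17, Gata4 and Sox7 and expresses Pdgfra at its surface, and it goes on to form parietal and visceral endoderm. Hnf4a and Foxa1 act in visceral endoderm, where Hnf4a drives genes for secreted and carrier proteins. Embryoid bodies form a comparable outer endoderm layer around a core of pluripotent cells.

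All 8 probes were well above background on all 8 arrays, and all 7 genes passed the filter that left 22422 genes for the test. On each array 68.0% to 75.1% of the 43020 spots that are not controls were above background by the scanner's flag, and 0 were saturated. Pou5f1, a defining pluripotency factor, was well above background on every array, with values from 4.35 to 4.59. These values, like every level below, are log2 signals minus the 75th percentile of their array. The arrays lay on 3 slides: on slide 1 were the first replicates of all 3 groups, on slide 2 Control replicate 2 with siRNA 1 replicate 3, and on slide 3 Control replicate 3 with replicate 2 of both siRNAs. The arrays of slide 1 stood apart on the first principal component, and each group always took the same position on a slide, so position and group cannot be told apart. The probe named for Ppp3cb averaged 0.63 ± 0.11 (SD) over the 3 Control arrays, 0.39 ± 0.21 over the 3 arrays of siRNA 1 and 0.52 ± 0.15 over the 2 arrays of siRNA 2. Whether that probe reads the CnAb1 variant is not known here, so it does not check the labels.

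The RefSeq promoter table of assembly GRCm38.p6 held 3 of the 7 genes, with 2 start sites for Hnf4a. The 250 bases before each start were searched on both strands for motifs of the families to which these factors belong: AGATAA and TGATAA for GATA factors, TGTTTAC and TGTTTGC for forkhead factors such as Foxa1, AACAAT for SOX factors and CAAAGTCCA for Hnf4a itself. The motifs of 1 family cannot match at the same bases on the same strand. The sequences below are those of the 3 genes that the promoter table held, with 1 of the 2 Hnf4a starts printed. Between arrays, Hnf4a had the widest range of the 7 genes, Foxa1 the narrowest, and Pdgfra followed Gata6. Any relation of the motifs to that variation was not tested. The sequences run 5′ to 3′ on the gene's own strand, and capitals mark a motif match.
Hnf4a, the more upstream start, chr2:163506607-163506856, plus strand: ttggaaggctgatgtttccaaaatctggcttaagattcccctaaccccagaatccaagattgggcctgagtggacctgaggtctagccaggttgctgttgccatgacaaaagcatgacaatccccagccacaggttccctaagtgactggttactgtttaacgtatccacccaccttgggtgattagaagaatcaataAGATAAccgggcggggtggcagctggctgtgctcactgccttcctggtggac
Foxa1, chr12:57546112-57546361, minus strand: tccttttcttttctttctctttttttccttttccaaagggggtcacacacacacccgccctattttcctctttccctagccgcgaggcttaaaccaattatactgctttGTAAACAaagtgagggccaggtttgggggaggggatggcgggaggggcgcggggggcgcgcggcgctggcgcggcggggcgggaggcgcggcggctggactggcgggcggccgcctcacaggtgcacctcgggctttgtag
Pdgfra, chr5:75152001-75152250, plus strand: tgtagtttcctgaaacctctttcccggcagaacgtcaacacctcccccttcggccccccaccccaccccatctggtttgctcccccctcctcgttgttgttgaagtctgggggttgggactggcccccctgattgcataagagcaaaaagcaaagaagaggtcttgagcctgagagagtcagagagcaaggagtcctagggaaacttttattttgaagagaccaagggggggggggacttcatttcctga

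The upstream Hnf4a window held 1 GATA match, AGATAA, which begins 52 bases before the start. Either GATA motif occurred in 16.6% of the 32851 windows of this length. The Foxa1 window held 1 forkhead match, TGTTTAC on the strand opposite to the gene and so printed as GTAAACA, which begins 141 bases before the start. Either forkhead motif occurred in 7.29% of windows, AACAAT in 9.42% and CAAAGTCCA in 0.384%. The Pdgfra window and the other Hnf4a window held none of the 6 motifs. A match describes letters in a window and says nothing on whether a factor binds there.

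The first comparison asked how the 7 genes stood in siRNA 2 against Control. All 7 had lower means in siRNA 2, with a median log2 difference of -1.12, and the median over all genes tested was -0.00024. Gata4, Gata6, Sox7, Sox17, Hnf4a and Pdgfra stood lower by 1.66-fold to 2.32-fold, and Foxa1 by 1.09-fold. None passed limma's test at a Benjamini-Hochberg adjusted p under 0.05, with an adjusted p of 0.9997 for each, and 0% of the 22422 genes passed in this comparison. Both siRNA 2 arrays lay below all 3 Control arrays for 5 of the 7 genes, and 8.1% of all genes were ordered that way. Before adjustment, limma's p was under 0.05 for Gata4, Gata6, Sox7, Hnf4a and Pdgfra, and 1.94% of all genes were lower at that level. With bulk RNA, fewer endoderm cells and less of these RNAs in each cell cannot be told apart.

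Gata6, the GATA factor at the start of the primitive endoderm programme, had log2 signals of -2.74, -2.13 and -1.29 on the Control arrays. The siRNA 1 arrays gave -2.39, -1.95 and -2.99, and the siRNA 2 arrays gave -3.16 and -3.36. Both siRNA 2 arrays were thus the lowest of the 8, and the siRNA 1 arrays lay inside or just below the Control range. The difference between siRNA 2 and Control was -1.20 (SE 0.44, 95% interval -2.25 to -0.16). On the scanner's own scale, the processed intensity of the Gata6 probe ran from 82.7 to 424.

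Gata4, which follows Gata6 in primitive endoderm and is kept in both of its derivatives, stood at -1.70, -1.30 and -0.93 in Control, at -1.86, -1.15 and -1.74 in siRNA 1 and at -2.15 and -1.93 in siRNA 2. As for Gata6, the siRNA 2 arrays were the 2 lowest, but the whole range over the arrays was narrower, 2.33-fold against 4.20-fold. The difference between siRNA 2 and Control was -0.73 (SE 0.28, 95% interval -1.39 to -0.07).

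The SOX factors of the endoderm varied most within Control. Sox17, an early primitive endoderm factor that definitive endoderm also expresses, stood at -3.16, -2.12 and -1.37 in Control, at -2.49, -2.21 and -3.19 in siRNA 1 and at -3.03 and -3.46 in siRNA 2. Control replicate 1 lay between the 2 siRNA 2 arrays, so the groups overlapped, and the difference of -1.03 (SE 0.52, 95% interval -2.25 to 0.19) had an interval that included 0. The other Sox17 probe averaged -2.91 ± 0.88 (SD) over the 3 Control arrays, -3.24 ± 0.48 over the 3 arrays of siRNA 1 and -3.75 ± 0.34 over the 2 arrays of siRNA 2, in the same order as the first probe.

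Sox7, the F-group partner of Sox17 that persists in parietal endoderm, stood at -3.64, -2.82 and -2.11 in Control, at -3.09, -2.69 and -3.64 in siRNA 1 and at -4.11 and -3.92 in siRNA 2. Its siRNA 2 arrays lay below the other 6, with a difference from Control of -1.16 (SE 0.45, 95% interval -2.21 to -0.10). The lowest siRNA 1 array and the lowest Control array were at the same level.

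Hnf4a, the nuclear receptor that drives the secretory genes of visceral endoderm, stood at -3.17, -2.35 and -2.03 in Control, at -2.84, -1.49 and -2.49 in siRNA 1 and at -3.48 and -3.99 in siRNA 2. Its highest array was siRNA 1 replicate 2 and its lowest was siRNA 2 replicate 2, 5.65-fold apart and on the same slide. The difference between siRNA 2 and Control was -1.22 (SE 0.47, 95% interval -2.32 to -0.11), 2.32-fold.

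Foxa1, a forkhead pioneer factor, was nearly flat. It stood at -1.83, -1.78 and -1.59 in Control, at -1.76, -1.88 and -1.81 in siRNA 1 and at -1.83 and -1.90 in siRNA 2, so that all 8 arrays lay within 1.24-fold. The interval of its difference between siRNA 2 and Control, -0.13 (SE 0.10, 95% interval -0.37 to 0.11), reached neither the -0.73 of Gata4 nor the differences of the other 5 genes. The difference between Foxa1 and the other genes was not tested.

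Pdgfra, the receptor for PDGF-A by which primitive endoderm cells are recognised and sorted, had processed intensities from 27.9 to 130, and its lowest value was 2.32 times the lowest signal called well above background on that array. It stood at -4.27, -3.61 and -2.99 in Control, at -4.04, -3.86 and -4.53 in siRNA 1 and at -4.56 and -4.92 in siRNA 2. Both siRNA 2 arrays were below all others, by a small margin over siRNA 1 replicate 3. The difference from Control was -1.12 (SE 0.37, 95% interval -1.995 to -0.24).

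**Figure D1:**
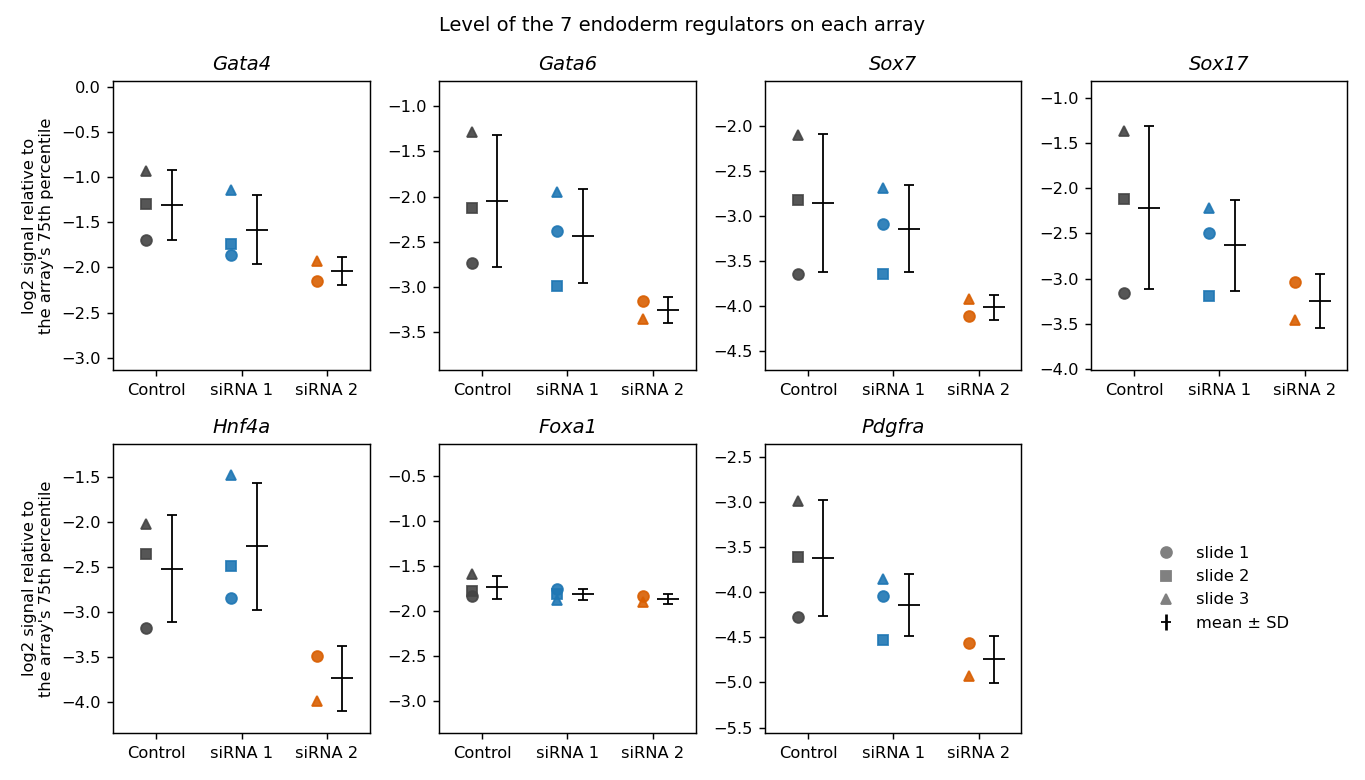
Each panel plots 1 gene, with the log2 signal minus its array's 75th percentile on the vertical axis (the same span in every panel) and the 3 groups on the horizontal axis; points are arrays, shapes are slides, and bars give the mean ± SD. The siRNA 2 points lie below all Control points for Gata4, Gata6, Sox7, Hnf4a and Pdgfra, overlap with Control for Sox17, and Foxa1 is flat.

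These differences rest on few arrays and on how dim signals are corrected. The median of the 7 genes was -0.78 without Control replicate 3, with Sox17 at -0.61 and Foxa1 at -0.06, and it was -0.59 after normexp background correction, with Pdgfra at -0.42.

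siRNA 1 has the same target, and its 3 arrays were not separated from Control for any of the 7 genes. The means were lower for 6 genes and higher for Hnf4a, with a median difference of -0.28 against 0.02 over all genes. In this comparison 2.48% of all genes had every siRNA 1 array below every Control array, 0% passed the adjusted threshold, and none of the 7 genes had a limma p under 0.05 before adjustment, a level at which 0.892% of all genes were lower (adjusted p of 0.99998 for each of the 7). The differences were -0.39 for Gata6 (95% interval -1.32 to 0.55), -0.27 for Gata4, -0.28 for Sox7, -0.42 for Sox17, 0.24 for Hnf4a (95% interval -0.74 to 1.23), -0.08 for Foxa1 and -0.52 for Pdgfra. Both intervals included 0, and that of Gata6 also included its siRNA 2 difference of -1.20. Without Control replicate 3 the median was -0.0049, and Sox7 and Sox17 stood at 0.090 and 0.0085. Hnf4a changed sign to -0.084 without Control replicate 1 and to -0.15 without siRNA 1 replicate 2.

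The siRNAs were then compared with each other. All 7 genes had lower means in siRNA 2 than in siRNA 1, as did 57.4% of all genes. The median difference was -0.61, against -0.03 over all genes. For 5 genes both siRNA 2 arrays lay below all siRNA 1 arrays, the order that 11.7% of all genes had. Hnf4a differed most, by -1.46 (SE 0.47, 95% interval -2.56 to -0.36, limma adjusted p = 0.9999). Sox7 differed by -0.87, Gata6 by -0.82, Sox17 by -0.61, Pdgfra by -0.60 and Gata4 by -0.46, each with an interval that included 0. Gata4 stood at -0.24 without siRNA 1 replicate 2 and Sox17 at -0.40 without siRNA 2 replicate 2, and after normexp correction the median was -0.30 and Pdgfra stood at -0.17. Foxa1 differed by -0.05 and turned to 0.029 when each array was scaled to its median. None of the 7 genes, and 0% of all genes, passed the adjusted threshold. Of the lists described below, 11 of 11 pluripotency factors, 8 of 8 mesoderm markers and 17 of 18 visceral endoderm genes were also lower in siRNA 2 than in siRNA 1. By contrast, 4 of 15 FGF and ERK genes and 2 of 7 fibroblast markers were lower.

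Averaging the siRNA groups against Control, which uses the same Control arrays, gave lower values for all 7 genes with a median of -0.72. Pdgfra stood at -0.82 (SE 0.30, limma adjusted p = 0.9998), Gata6 at -0.80, and Sox7 and Sox17 at -0.72 each. Gata4 followed at -0.50, Hnf4a at -0.49 and Foxa1 at -0.10. The arrays of the groups overlapped for each of the 7 genes, and 0.986% of all genes had every siRNA array below every Control array. Without Control replicate 3 the median was -0.31.

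**Figure D2:**
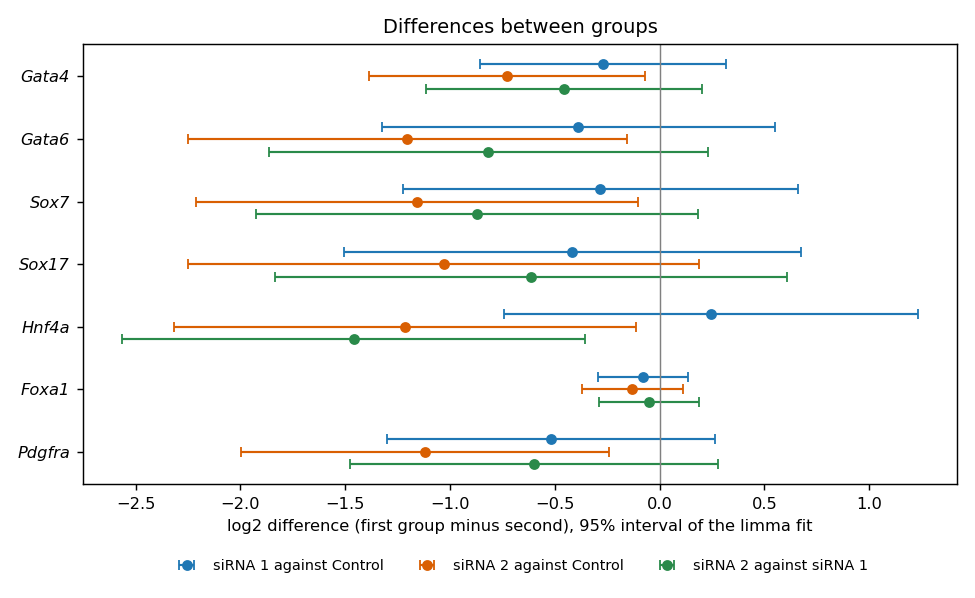
Points give the fitted log2 difference of each gene (horizontal axis) in 3 comparisons, and bars give the 95% interval of the limma fit. For siRNA 2 against Control the bars of Gata4, Gata6, Sox7, Hnf4a and Pdgfra lie below 0 before any adjustment over genes, and every bar for siRNA 1 against Control includes 0.

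Slides held whole sets of arrays, so each siRNA array was set against the Control array of its own slide. On slide 3, siRNA 2 replicate 2 was lower for all 7 genes, with a median of -1.93 and values from -2.09 for Sox17 to -0.31 for Foxa1. On slide 1, siRNA 2 replicate 1 was lower for 5 genes, with a median of -0.31. Gata4, Gata6, Sox7, Hnf4a and Pdgfra stood at -0.45, -0.42, -0.47, -0.31 and -0.29 there, and Sox17 and Foxa1 at 0.13 and 0.01. The direction was therefore shared by both slides for 5 genes, and for each of them the difference was larger on slide 3, whose Control array was the highest of the Control arrays.

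For siRNA 1 the slides went different ways. On slide 1, siRNA 1 replicate 1 was higher than its Control for 6 genes, with a median of 0.33 and Sox17 at 0.67, and Gata4 was lower at -0.16. On slide 2, siRNA 1 replicate 3 was lower for all 7 genes, with a median of -0.82. On slide 3, siRNA 1 replicate 2 was lower for 6 genes, with a median of -0.58, and Hnf4a was higher by 0.54. Over all genes the median of such a within-slide difference, for either siRNA, lay between -0.0076 and 0.03. Between 40.9% and 51.8% of all genes were lower than on the Control array of the slide.

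The siRNAs kept the same order on both slides that held them. siRNA 2 was below siRNA 1 for all 7 genes on slide 1 and on slide 3. These arrays also entered the comparison of the siRNAs above, where 57.4% of all genes were lower in siRNA 2. The share of all genes within each slide was not computed. Gata6 differed by -0.77 and -1.41, Sox7 by -1.01 and -1.23, Hnf4a by -0.64 and -2.50, and Foxa1 by -0.07 and -0.03. With the slide as a block in the fit, the median was -1.21 for siRNA 2 against Control, -0.28 for siRNA 1 against Control and -0.73 for siRNA 2 against siRNA 1, and no gene of the 7 passed the threshold. Under that block, Gata6 stood at -1.36, Sox7 at -1.27, Hnf4a at -1.23 and Pdgfra at -1.21 for siRNA 2 against Control.

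**Figure D3:**
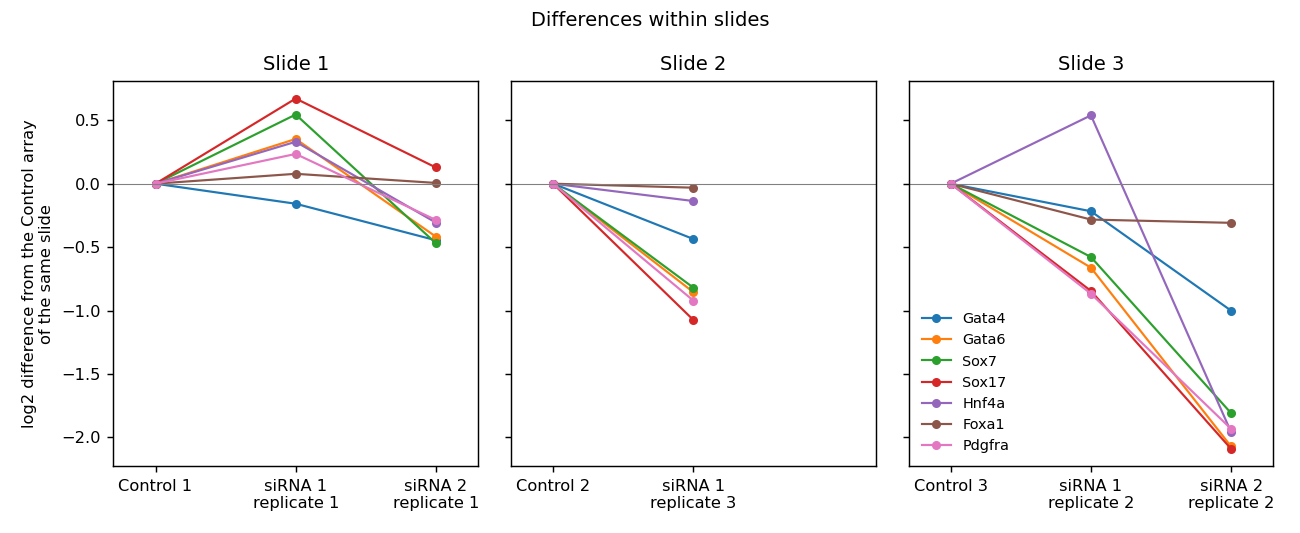
Each panel is 1 slide, and lines join the log2 difference of each gene (vertical axis) from the Control array of that slide, which sits at 0. On slide 1 the siRNA 1 values lie between -0.16 and 0.67, and on slide 3 the siRNA 2 values lie between -2.09 and -0.31.

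The spread within Control was wide for 6 of the 7 genes and ran in the same order. Control replicate 1 was the lowest and Control replicate 3 the highest Control array for all 7 genes. From the lowest to the highest Control array, Sox17 spanned 3.47-fold, Sox7 2.89-fold, Gata6 2.74-fold, Pdgfra 2.43-fold, Hnf4a 2.21-fold, Gata4 1.71-fold and Foxa1 1.18-fold, where the median of all genes tested was 1.25-fold. The Control SD of Sox17 was larger than that of 97.9% of the genes tested, and that of Foxa1 larger than 38.0%. Control replicate 3 was the highest of the 8 arrays for 6 genes, and siRNA 2 replicate 2 was the lowest for 5.

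Over the 8 arrays, Gata6, Sox7, Sox17 and Pdgfra shared 1 pattern. After each gene was centred on its own mean, the root mean square distance between Gata6 and Sox7 was 0.12 on the log2 scale, and no other gene with a symbol was nearer to either than they were to each other. Gata6 was likewise the nearest gene to Pdgfra, at 0.15, and to Sox17, at 0.16. Gata4 was nearest to Pdgfra among the 7, at 0.30, and 564 other genes were nearer. Hnf4a was nearest to Sox7, at 0.43, with 31 other genes nearer, and Foxa1 to Gata4, at 0.36, with 13818 nearer. These distances are a description over 8 arrays that share slides and groups.

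The genes outside the 7 whose centred values lay nearest to the mean of the 7 were Dram1, Kdelr3, Amn, Bmp2 and Cited1, at distances of 0.117 to 0.138, where the median of genes with a symbol was 0.533. Since they were picked for that nearness on the same arrays, their differences between groups follow from the choice and add no separate evidence. Amn encodes amnionless, the partner of cubilin in the endocytic receptor of visceral endoderm, and stood at -1.002 in siRNA 2 against Control. Bmp2, a ligand that visceral endoderm secretes, stood at -0.83, and Cited1, a transcriptional cofactor, at -1.03. Dram1, a lysosomal membrane protein, stood at -1.05, and Kdelr3, a receptor that returns proteins to the endoplasmic reticulum, at -1.01. After normexp correction Dram1 and Bmp2 each stood at -0.33. Amn, Bmp2 and Cited1 also belong to the list of visceral endoderm genes below.

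Genes downstream of the 7 were followed in a list of visceral and a list of parietal endoderm genes. Of 18 visceral endoderm genes tested, 15 stood lower in siRNA 2 than in Control and 3 higher, with a median of -0.63 (-0.40 after normexp correction and -1.01 without the arrays of slide 1), and 0 passed the adjusted threshold. Afp, alpha-fetoprotein, was well above background on all 6 Control and siRNA 1 arrays and on neither siRNA 2 array, which puts it at least 6.64-fold lower in siRNA 2 than in Control (limma adjusted p = 0.940). Its Control arrays stood at -2.20, -3.62 and -4.73, the opposite order to the 7 genes, and the bound was 4.21-fold without Control replicate 1 and 10.1-fold without Control replicate 3. After normexp correction the fitted Afp difference was -0.91. Ttr, transthyretin, a target of Hnf4a, stood at -1.82 (-1.12 after normexp correction), Dab2, an endocytic adaptor, at -0.58 (-0.94 without the arrays of slide 1), and Trf, transferrin, at 0.20. In siRNA 1 the visceral list had a median of 0.05 with 8 lower and 10 higher, and Ttr stood at 0.89.

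Of 16 parietal endoderm and basement membrane genes, 15 stood lower in siRNA 2 and 14 in siRNA 1, with medians of -0.52 and -0.31, and 0 passed. Srgn, the proteoglycan serglycin, stood at -1.49 in siRNA 2 (1 siRNA 1 spot was left out as an outlier), and Krt19, a keratin, at 0.18. Without Control replicate 3 the parietal median for siRNA 2 was -0.24.

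Paralogs, cofactors and other endoderm transcription factors did not stand lower as a list: 11 of 19 were lower and 8 higher in siRNA 2, with a median of -0.05 and 0 past the threshold. Foxa2, the paralog of Foxa1, differed from it, with -1.80, -1.28 and -0.64 in Control, -1.80, -1.07 and -1.86 in siRNA 1 and -2.79 and -2.76 in siRNA 2. Its siRNA 2 arrays lay below all others, with a difference from Control of -1.53 (SE 0.36, limma adjusted p = 0.9997). The GATA cofactors Zfpm1 and Zfpm2 stood at -0.05 and 0.62 (0.24 after normexp correction for Zfpm2), and Zfpm1 turned to 0.050 without Control replicate 3.

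The genes for the signals upstream of the 7 did not stand lower as lists. Of the PDGF ligands and the other PDGF receptor, 4 of 4 tested genes stood higher in siRNA 2, with a median of 0.14 (0.068 without Control replicate 3) and 0 past the threshold. Pdgfa, the main ligand of Pdgfra, stood at 0.10 and turned to -0.071 without siRNA 2 replicate 1, and Pdgfc stood at 0.18. Of 15 FGF and ERK genes, 7 were lower and 8 higher, with a median of 0.04 and 0 past the threshold. That median was 0.013 without Control replicate 3, 0.091 without Control replicate 2 and -0.010 when all probes of a gene were averaged. Fgf4, the ligand that promotes primitive endoderm, stood at 3.22, 3.31 and 3.19 in Control, 3.68, 3.55 and 3.76 in siRNA 1 and 3.68 and 3.72 in siRNA 2. It was thus higher on all 5 siRNA arrays than on any Control array, by 0.42 (SE 0.09) in siRNA 1 and 0.46 (SE 0.10) in siRNA 2, with limma adjusted p of 0.799 and 0.981, and 2.48% of all genes were ordered that way. Its receptor gene Fgfr2 stood at 0.10 in siRNA 2, a sign that turned to -0.030 without Control replicate 1 and to -0.087 without siRNA 2 replicate 1, and Sos1, an exchange factor on the way to ERK, at -0.31, with -0.12 without Control replicate 3, -0.49 without Control replicate 2 and 0.012 after normexp correction.

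Pluripotency factors, which mark the cells that have not taken the endoderm path, stood higher in siRNA 1 for 11 of 11 genes, with a median of 0.60, and in siRNA 2 for 8 of 11, with a median of 0.33, and 0 passed. The siRNA 2 median ranged from 0.14 without Control replicate 1 to 0.55 without Control replicate 2, and was -0.0095 without the arrays of slide 1. Nanog, which opposes Gata6, stood at 0.37 in siRNA 1 and 0.10 in siRNA 2, the latter turning to -0.10 without siRNA 2 replicate 2. Pou5f1 stood at -0.09 in siRNA 2 (-0.041 without siRNA 2 replicate 2 and -0.15 without Control replicate 2). Prdm14 stood at 0.67, ranged from 0.44 without Control replicate 1 to 1.01 without Control replicate 2, and was 0.26 after normexp correction. The mean of the list, centred over the 8 arrays, ranged from -0.59 to 0.23 in Control. It ranged from 0.03 to 0.69 in siRNA 1 and from -0.14 to 0.11 in siRNA 2, so the groups overlapped. The highest value was that of siRNA 1 replicate 1, and the other siRNA 1 arrays stood at 0.029 and 0.065. Both of these lay below siRNA 2 replicate 1, at 0.11, and Control replicate 2, at 0.23. Any relation of this mean to the levels of the endoderm regulators was not tested.

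Several of the 7 genes are also expressed in other lineages, and markers of those lineages, counted without the 7, stood as follows in siRNA 2. Definitive endoderm markers stood lower for 6 of 6 genes, with a median of -0.88 (-0.47 after normexp correction), and their mean ranged from 0.16 to 0.40 in Control, -0.18 to 0.31 in siRNA 1 and -0.56 to -0.46 in siRNA 2. Foxa2 is among them, and it was also counted in the list of other endoderm transcription factors above. Whether these markers came from definitive or from extraembryonic endoderm was not tested. Mesoderm markers stood lower for 5 of 8, with a median of -0.18 (-0.31 without Control replicate 3, -0.057 without Control replicate 2 and 0.013 with array weights) and Evx1 at -1.63 (-0.68 after normexp correction), and their mean ranged from 0.07 to 0.33 in Control, -0.13 to 0.14 in siRNA 1 and -0.34 to -0.23 in siRNA 2. The part of either lineage in the levels of Sox17, Gata4, Gata6 or Pdgfra was not tested.

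Markers of the remaining cell types overlapped between groups as lists. Of 7 fibroblast markers, 4 were lower and 3 higher in siRNA 2, with a median of -0.09, although Fap was well above background on all Control arrays and on no siRNA array. Fap was dim in Control too, which puts it at least 1.59-fold lower in siRNA 1 and 1.62-fold lower in siRNA 2. After normexp correction its siRNA 2 difference was -0.14. Trophectoderm markers were lower for 2 of 6 genes and neuroectoderm markers for 5 of 6, with medians of 0.06 and -0.08, and 0 genes of any of these lists passed the adjusted threshold. Each of these 3 medians changed sign with 1 array left out, ranging from -0.17 to 0.08, from -0.12 to 0.31 and from -0.39 to 0.22. The fibroblast and trophectoderm medians were lowest without siRNA 2 replicate 1 and highest without siRNA 2 replicate 2, and the neuroectoderm median the reverse.

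**Figure D4:**
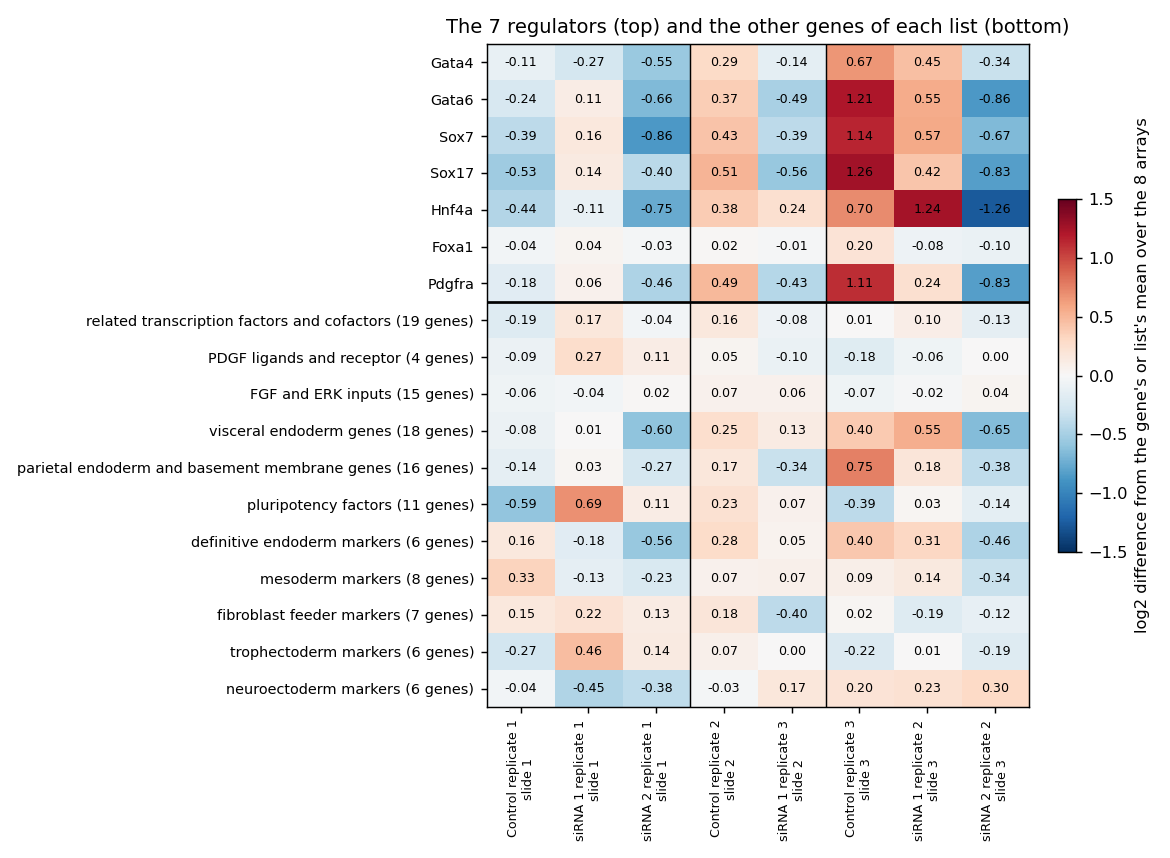
Rows are the 7 genes and, below the line, the mean of the other genes of each list, columns are the 8 arrays ordered by slide, and colour and number give the log2 difference from the row's mean over the 8 arrays. Control replicate 3 is the highest array for 6 of the 7 genes, and both siRNA 2 arrays are below 0 for all 7. The visceral endoderm, definitive endoderm and mesoderm rows are lowest in the same 2 arrays.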

How the data were processed

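The deposited scanner files held a processed intensity per feature, which the authors' scanner software, Agilent Feature Extraction 10.7.3.1, had already corrected for background (per the file headers). They also held median spot and background signals, which only the normexp alternative used. A second deposited file gave log2 values for these 8 arrays: compared with the scanner files, they were processed signals scaled to the 75th percentile of each array and then centred per probe. RMA appears in the submitters' processing notes, with no stated role. The table's columns for Control replicates 2 and 3 matched each other's scanner file, and the scanner files' names were used. Other upstream steps are not given in the sources used here.

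Control and outlier spots were left out, log2 intensities were reduced by the 75th percentile of their array, and spots of a probe were averaged. Probes were named by accession through RefSeq (GRCm38.p6, versions dropped), which matched 26424 of 39429 probes and left 13005 unnamed. Each unnamed accession counted as a gene, so shares of all genes include them. Of the 22422 genes tested, 15565 had a symbol. The array's design used build mm9, so no probe coordinates are given. The brightest probe stood for a gene, and it had to be well above background throughout 1 group or more for the gene to be tested. limma 3.58.1 (lmFit, eBayes; R 4.3.3, statmod 1.5.0) fitted the 3 groups together, and p-values were adjusted over 22422 genes (Benjamini-Hochberg, threshold 0.05). Where a gene was not above background in a group, the fold is a lower bound: the brighter mean was divided by the mean, over the dim arrays, of the probe's signal or the lowest signal called well above background there, whichever was higher. The fit was tested on simulated data. Files were read and plots drawn in Python 3.11.15 (pandas 2.3.3, numpy 2.4.6, matplotlib 3.10.9).

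The 7 genes and all lists were chosen with earlier results of these data known. Genes named beside the 7 are partners, paralogs or targets, the gene of each list with the smallest p in each direction for siRNA 2 against Control, and the 5 nearest in pattern; a few that this rule takes are given in counts alone. Lists are described by counts and medians. The number of arrays limits precision. Alternatives were other scalings, background corrections, filters, probes, variance models, array weights, blocks, and leaving out arrays. The files held no mean spot signal, so normexp used the median. It added an offset of 50 and was followed by quantile normalization, so it changed background correction, offset and scaling together. Which of these moved a difference was not tested.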

Additional observations from a re-analysis of the deposited data

How the results depend on the processing

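Of 581 differences of the 7 genes under 21 alternatives, 576 kept their direction, 0 passed the threshold (lowest adjusted p 0.195) and 5 changed sign: Sox7 (0.090) and Sox17 (0.0085) in siRNA 1 without Control replicate 3, Hnf4a in siRNA 1 without Control replicate 1 (-0.084) or siRNA 1 replicate 2 (-0.149, in a range up to 0.529 with 1 array left out), and Foxa1 (0.029) between the siRNAs under median scaling. Some alternatives could not change a difference: other filters, another variance model, fitting only the groups compared, and leaving out an array of a group not compared. The 576 therefore include differences whose direction was fixed in advance. Array weights moved the median of the 7 genes to -1.23 for both siRNAs and to -0.78 for siRNA 1, and 9 genes passed for both siRNAs. For siRNA 2 the median was -0.59 after normexp correction and -1.63 without the arrays of slide 1, which leaves 1 siRNA 2 array, assumed to vary like the other groups. Leaving out 1 array, the medians ranged from -1.11 to -0.31 for both siRNAs, -0.68 to -0.0049 for siRNA 1, -1.502 to -0.78 for siRNA 2 and -0.89 to -0.46 between siRNAs, where normexp gave -0.30. Genes passing for siRNA 2 ranged from 0 to 1 with 1 array left out, and 1 passed between the siRNAs when only those groups were fitted. The causes were not tested. For siRNA 2, Pdgfa turned to -0.12 and Fgfr2 to -0.22 without the arrays of slide 1, Fgfr2 to -0.030 without Control replicate 1, and Sos1 to 0.012 under normexp. With 1 array left out, Zfpm1 ranged from -0.097 to 0.050 (the latter without Control replicate 3), Pdgfa from -0.071 to 0.277, Fgfr2 from -0.087 to 0.286 and Nanog from -0.104 to 0.299, lowest without siRNA 2 replicate 1 for Pdgfa and Fgfr2 and without siRNA 2 replicate 2 for Nanog.

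The labelled replicate numbers matched the slides only in part. Same-numbered arrays on the same slide correlated from 0.327 to 0.698 in their deviations from group means. Same-numbered arrays on different slides, where each pair held Control replicate 2 or 3, correlated from -0.042 to 0.05. With a replicate block the medians were -0.69 for both siRNAs, -0.28 for siRNA 1, -1.06 for siRNA 2 and -0.54 between siRNAs, and 0 genes passed. With the labels of the deposited table the numbers would coincide with the slides, whose block the report gives.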
